A study of Mus musculus with 3 samples.

Results

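The genes described here encode NF-kappaB subunits and the feedback inhibitors of the same pathway. They were taken as the 10 rows with the symbols Nfkb1, Nfkb2, Rel, Relb, Nfkbia, Nfkbie, Nfkbiz, Tnfaip3, Tnip1 and Tnip3 among the 32285 genes of the deposited matrix, by a rule that names symbols only, and all 10 were found. NF-kappaB factors are dimers of Rel-family proteins that are held in the cytoplasm by IkappaB proteins until a signal, for example through a Toll-like receptor or a cytokine receptor, leads to IkappaB breakdown and lets the dimers enter the nucleus. Among their targets are genes that end the response: new IkappaB protein takes the dimers out of the nucleus, and the ubiquitin-editing protein A20 with its binding partners dampens the signal upstream. In macrophages the pathway controls cytokines, chemokines and adhesion molecules, and transcripts such as Nfkbia and Tnfaip3 are widely read as signs of recent NF-kappaB activity.

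The study asked how aortic leukocytes differ between Jak2WT control mice and Jak2V617F Myel mice, and between mutant aortas with dilation and with aneurysm. CD45+ cells from the aortas of 5 Jak2WT mice and 5 Jak2V617F Myel mice were profiled by CITE-seq, which reads RNA and antibody tags from single cells. Mice 1 to 5 were Jak2WT and mice 6 to 10 were Jak2V617F Myel. Every mutant aorta was visibly affected, with dilation in mice 6, 8 and 10 and aneurysm in mice 7 and 9. The Jak2V617F allele is a gain-of-function form of the kinase JAK2, switched on here by a Cre recombinase under the LysM promoter, which acts mainly in myeloid cells. Controls were littermates on the same C57BL/6 background that carried the wild-type kinase, no mouse received a drug or diet, and mice of both sexes were used in the study, with the sex and age of each of these 10 mice not given in the sources used here. Circulating leukocytes were labelled by an intravenous CD45.2 antibody before death and were gated out in the sort. Each mouse had its own hashtag antibody, and after pooling all cells went through 1 sort, balanced between genotypes, and 1 droplet load. Before pooling, Jak2WT and Jak2V617F Myel cells were labelled with CD45.2 antibodies of different colours, a step that cannot be told apart from genotype. Digestion of the aorta took place at body temperature, which by itself can induce immediate-early, stress and NF-kappaB target genes. Counts or medians of the corresponding gene lists are given beside some of the results, and summed levels beside fewer.

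Of 8471 barcodes, 5857 carried 1 hashtag and 4871 remained after 2265 multi-hashtag barcodes, 349 untagged barcodes and 986 cells with high mitochondrial counts were left out. The number of cells per mouse ran from 112 to 811. Clusters were named from marker genes, with the 10 members removed from the genes used for clustering, and gave 1769 curated macrophages. Of these, 612 were resident macrophages (363 Res-MGL1hi/S100hi and 249 Res-Txnip hi), 548 were IEG+ macrophages, named for immediate-early genes, and 486 were Ccr2+ inflammatory macrophages. The rest were 58 interferon-induced macrophages, 28 monocytes and unnamed clusters of 21 and 16 cells, the latter led by T cell genes such as Trbc2. UMIs, which count captured RNA molecules, were summed per mouse and class, and levels are given as CPM, in which the UMIs of a gene are divided by all UMIs of the sum and scaled as usual, for sums of at least 10 cells. A sum for resident macrophages held 24 to 102 cells and 249500 to 1162000 UMIs per mouse. The summed level of 8 macrophage markers was 19753 to 23799 CPM in resident macrophages and 190 to 571 CPM in T cells, while 6 T cell markers reached 5.37 to 27.9 CPM in resident macrophages. By Jak2WT means, IEG+ macrophages held Mrc1 at 2087 CPM and Lyve1 at 889 CPM, against 2190 and 1904 CPM in resident macrophages. Jak2 itself was read at 14.8 to 44.1 CPM in resident macrophages with a log2 fold change of −0.03 between genotypes, and 3′ gene counts do not tell the mutant allele from the wild-type one, so the label could not be checked by it.

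The promoters of the members are shown first, because NF-kappaB is known to bind the genes of its own inhibitors. RefSeq promoter windows on GRCm38.p6, from 250 bases before to 50 bases after each annotated start, were at hand for 7 members. Nfkb1, Relb and Nfkbiz had no entry. The windows were searched on both strands, overlapping matches included, for the 10-base consensus kappaB site. All 7 members held at least 1 match, against 9.55% of 27025 genes and 8.46% of 32851 windows. In other lists, 10 of 25 NF-kappaB targets (40%), 7 of 33 other pathway genes (21.2%) and 4 of 17 immediate-early genes (23.5%) held one. The 250 bases before the start are printed 5′ to 3′ on the strand of the gene for the members whose values the results turn on, with each match in capitals. They are Nfkbia (chr12:55492648-55492897, minus strand), Tnfaip3 (chr10:19015411-19015660, minus strand, the first of 2 annotated starts, the other of which had no match), Rel (chr11:23770970-23771219, minus strand), Tnip1 (chr11:54962941-54963190, minus strand) and Tnip3 (chr6:65590148-65590397, plus strand).
Nfkbia: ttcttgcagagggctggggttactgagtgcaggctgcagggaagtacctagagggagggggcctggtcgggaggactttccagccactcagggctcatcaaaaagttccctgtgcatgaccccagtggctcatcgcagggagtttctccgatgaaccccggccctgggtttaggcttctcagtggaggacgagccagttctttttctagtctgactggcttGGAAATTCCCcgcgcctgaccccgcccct
Tnfaip3: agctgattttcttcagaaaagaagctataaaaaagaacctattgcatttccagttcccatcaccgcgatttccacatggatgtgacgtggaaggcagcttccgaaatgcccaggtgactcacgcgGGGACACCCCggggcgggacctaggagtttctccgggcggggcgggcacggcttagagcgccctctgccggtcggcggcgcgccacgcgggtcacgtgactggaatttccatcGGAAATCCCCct
Rel: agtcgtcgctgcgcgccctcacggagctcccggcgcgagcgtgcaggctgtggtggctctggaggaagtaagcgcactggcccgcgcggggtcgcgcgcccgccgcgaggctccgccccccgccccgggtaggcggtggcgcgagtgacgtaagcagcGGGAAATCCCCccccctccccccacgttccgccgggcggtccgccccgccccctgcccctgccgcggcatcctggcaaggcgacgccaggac
Tnip1: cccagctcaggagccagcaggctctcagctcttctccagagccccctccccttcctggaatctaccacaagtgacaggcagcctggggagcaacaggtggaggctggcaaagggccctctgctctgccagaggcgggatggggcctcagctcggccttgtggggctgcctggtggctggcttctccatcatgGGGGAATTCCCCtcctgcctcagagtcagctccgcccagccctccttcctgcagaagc
Tnip3: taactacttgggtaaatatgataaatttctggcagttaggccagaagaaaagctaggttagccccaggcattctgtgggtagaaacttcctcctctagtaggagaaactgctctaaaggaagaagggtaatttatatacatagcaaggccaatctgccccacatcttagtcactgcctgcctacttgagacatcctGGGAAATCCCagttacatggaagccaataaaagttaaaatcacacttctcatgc
The match in Nfkbia began at position -29 from the start and that in Tnip3 at position -54. Tnfaip3 held 2 separate matches, while the runs in Rel and Tnip1 are overlapping matches to the same stretch. A match describes the letters of the window and is not evidence that a factor bound there. By GENCODE positions on the same build, the genes lie at chr3:135584655-135691547 (Nfkb1), chr19:46304320-46312385 (Nfkb2), chr11:23736847-23770970 (Rel), chr7:19606217-19629438 (Relb), chr12:55489410-55492647 (Nfkbia), chr17:45555703-45563169 (Nfkbie), chr16:55811375-55838899 (Nfkbiz), chr10:19000910-19015657 (Tnfaip3), chr11:54910785-54962917 (Tnip1) and chr6:65525313-65634040 (Tnip3). The RefSeq starts used for Tnip3 and Tnfaip3 lie inside the longer GENCODE genes. The printed window of Tnip3 therefore lies wholly, and that of Tnfaip3 with both matches almost wholly, inside its GENCODE gene.

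Across 14 classes with at least 3 mice, the members differed in the class where they were highest. The level of Nfkbia was highest in IEG+ macrophages, those of Nfkb1 and Tnfaip3 in ILC2, that of Rel in B cells and that of Tnip3 in type 2 conventional dendritic cells (cDC2). Of the subunits, Nfkb1, which encodes the p105 precursor of p50, averaged 750 CPM in ILC2 (SD 236, n = 9 mice, range 325 to 1118). Its lowest class was Res-Txnip hi macrophages at 85.4 CPM. Nfkb2, which encodes the p100 precursor of p52, was highest in neutrophils at 123 CPM (SD 59.1, n = 3) and lowest in T cells at 23.2 CPM. That neutrophil cluster was also led by the basophil genes Prss34 and Mcpt8. Rel, the c-Rel subunit with known roles in lymphocytes, averaged 936 CPM in B cells (SD 182, n = 9, range 623 to 1161). It followed at 742 CPM (SD 235, n = 5) in Ccr2+ inflammatory macrophages and 708 CPM (SD 224, n = 9) in cDC2, and was lowest at 105 CPM in Res-Txnip hi macrophages. Relb, the partner of p52 in the non-canonical pathway, ran only from 29 CPM in type 1 conventional dendritic cells (cDC1) to 99.2 CPM in Ccr2+ inflammatory macrophages. The upper value rests on mouse 6, with 254 CPM from 10 cells, while the other mice of that class lay between 43.2 and 86.3 CPM.

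Of the inhibitors, Nfkbia, which encodes IkappaBalpha, averaged 3723 CPM in IEG+ macrophages (SD 275, n = 9, range 3373 to 4282). It reached 3306 CPM in neutrophils and 3251 CPM in Saa3+ myeloid cells, then 2471.5 CPM in mast cells (n = 4) and 2294 CPM in Ccr2+ inflammatory macrophages. Of the resident subsets, Res-MGL1hi/S100hi macrophages held 1569 CPM and Res-Txnip hi macrophages 652 CPM. The lowest levels were 344 CPM in T cells and 271 CPM (SD 72.9, n = 9) in B cells, whereas ILC2 held 1813 CPM. Nfkbiz encodes IkappaBzeta, an atypical nuclear IkappaB that also acts as a coactivator, and its level ran from 2411 CPM (SD 454, n = 9) in IEG+ macrophages to 61.5 CPM in B cells. Tnfaip3, which encodes A20, had its highest level in ILC2 at 1258 CPM (SD 356, n = 9, range 541 to 1669), next to mast cells at 1134 CPM. It stood at 637 CPM in Ccr2+ inflammatory macrophages, 609 CPM in IEG+ macrophages and 355 CPM in T cells, and at 86 CPM in Res-Txnip hi macrophages and 77.7 CPM in B cells. Nfkbie, which encodes IkappaBepsilon, was highest in neutrophils at 131 CPM. Tnip1, which encodes the A20-binding protein ABIN-1, did not pass a mean of 34.7 CPM in any class.

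Tnip3, which encodes the A20-binding protein ABIN-3, was the member most unevenly spread over the classes. It averaged 811 CPM in cDC2 (SD 187, n = 9, range 544 to 1152) and 261 CPM in proliferating cells (SD 289, n = 4, range 5.74 to 660). The proliferating class is a mix of lineages that differed between mice. The next classes were Ccr2+ inflammatory macrophages at 258 CPM (SD 165, n = 5, range 43.2 to 390) and cDC1 at 155 CPM. In IEG+ macrophages it averaged 12.8 CPM (range 0 to 26.7, where the 0 allows up to 8.72 CPM at 3 counts), in the resident subsets 2.76 and 8.91 CPM, in T cells 2.29 CPM and in B cells 1.78 CPM. No UMI of Tnip3 was found among the 146100 UMIs of mast cells from 4 mice, which allows up to 20.5 CPM at 3 counts. Free RNA in droplets can give levels of this order in cells that do not express a gene. The study lists Tnip3 among the genes of its inflammatory macrophages, and the gene was among the leading genes of 1 of the 2 clusters given that name here even though it was kept out of the clustering, so its level there describes the class and is no test. When classes were ordered by mean, the ranges of neighbouring classes overlapped for all 13 neighbour pairs in 9 members, and for 12 of 13 in Tnip3, where the gap lay between cDC1 and IEG+ macrophages. The range of proliferating cells spanned that gap, so it did not part all higher classes from the lower ones.

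**Figure D1:**
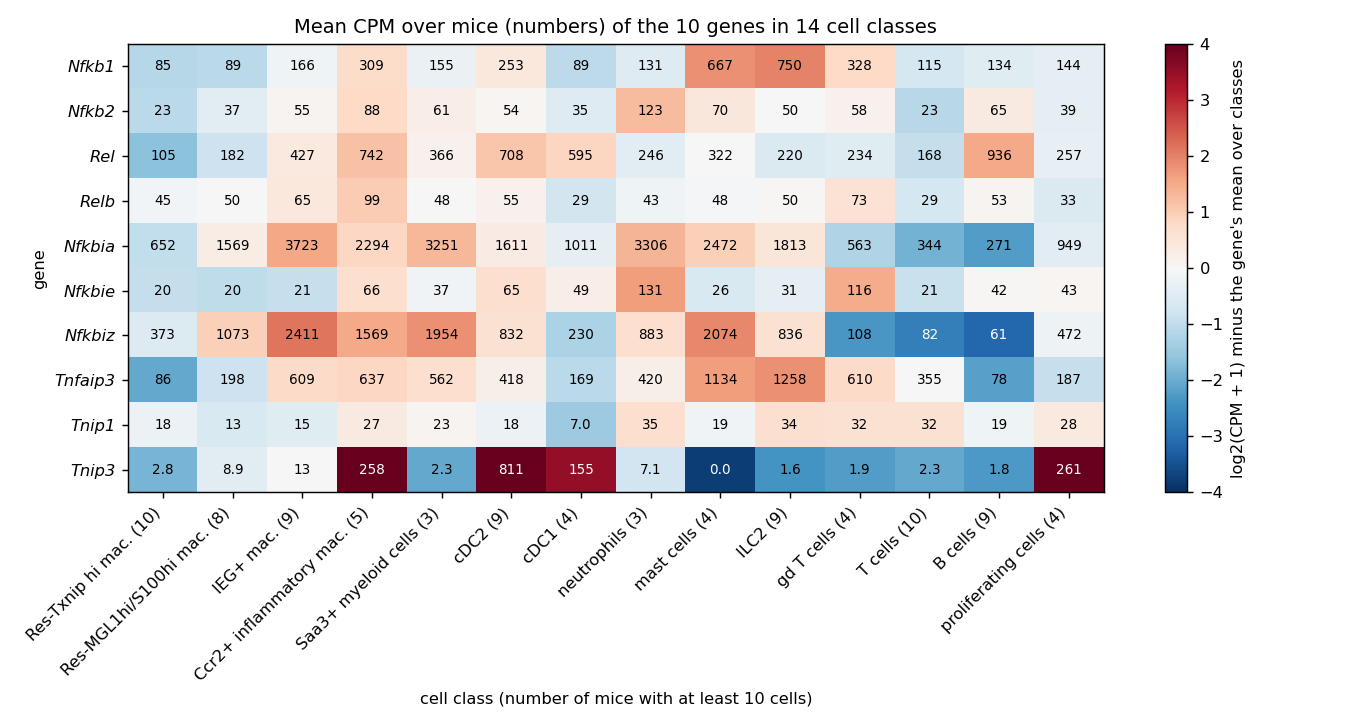
Mean level in CPM of the 10 members (rows) in 14 cell classes (columns, number of mice in brackets). Colour gives log2(CPM + 1) minus the mean of that gene over the classes. Nfkbia and Nfkbiz peak in IEG+ macrophages (3723 and 2411 CPM), Tnfaip3 and Nfkb1 in ILC2 (1258 and 750 CPM), Rel in B cells (936 CPM) and Tnip3 in cDC2 (811 CPM).

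Within single mice, the same order held among the macrophage subsets for part of the members. Nfkb1, Rel, Relb, Nfkbia, Nfkbiz and Tnfaip3 were each higher in IEG+ than in Res-Txnip hi macrophages in 9 of 9 mice, with median log2 ratios of 0.90, 1.91, 0.77, 2.6, 2.82 and 3.34. These 6 genes were also higher in IEG+ than in Res-MGL1hi/S100hi macrophages in 8 of 8 mice. Between the resident subsets, Nfkb2, Rel, Nfkbia and Nfkbiz were higher in Res-MGL1hi/S100hi than in Res-Txnip hi macrophages in 8 of 8 mice (median log2 ratios 0.58, 0.77, 1.36 and 1.62) and Tnfaip3 in 7 of 8 (1.59). Nfkb1 was higher in Res-MGL1hi/S100hi macrophages in only 5 of 8 mice (0.04), and Relb and Tnip3 in 4 of 8 each. Nfkbie and Tnip1 showed no such order, being higher in IEG+ than in Res-Txnip hi macrophages in 5 and 4 of 9 mice. Because immediate-early and stress genes helped to separate these clusters, the ratios are a description with no test.

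Ccr2+ inflammatory macrophages showed a different mixture of members. Against resident macrophages of the same mouse, Nfkb1, Rel, Relb, Nfkbia, Nfkbie, Tnfaip3 and Tnip3 were higher in 5 of 5 mice, with median log2 ratios of 1.6, 1.97, 0.48, 0.38, 1.67, 1.6 and 5.56. Against IEG+ macrophages, the subunits Nfkb1 and Rel and the inhibitors Nfkbie and Tnip3 were higher in 5 of 5 mice, whereas Nfkbia was higher in 0 of 5 (median log2 ratio −0.59) and Nfkbiz in 1 of 5 (−0.82). The inflammatory sums of Jak2WT mouse 2 and of mouse 6 rested on 11 and 10 cells. Outside the macrophages, cDC2 lay above resident macrophages in 9 of 9 mice for Nfkb1, Rel, Tnfaip3 and Tnip3. ILC2 lay above T cells in 9 of 9 mice for Nfkb1, Nfkbia, Nfkbiz and Tnfaip3 (median log2 ratios 2.76, 2.86, 3.68 and 1.83). B cells lay above T cells in 9 of 9 for Rel (2.91) and below in 9 of 9 for Tnfaip3 (−2.12).

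The pattern of each member over 16 classes, as mean CPM over mice, was compared with those of 9327 genes. These classes add NK cells (2 mice) and interferon-induced macrophages (1 mouse) to the classes ordered above. The genes most alike differed from member to member. The level of Nfkbiz was most like that of Nfkbia (Pearson's r = 0.96), and Phlda1 and Cdkn1a followed at 0.90 each. For Nfkbiz the next were Klf10 and Zfp36, at 0.90 each. Tnfaip3 was most like Fosl2 (0.86), with Nfkb1 at 0.77, while Nfkb1 was most like Enah (0.83), Nfkb2 like Zswim4 (0.82), Rel like Kynu (0.73) and Relb like Hbegf (0.80). Nfkbie was most like Plcb2 (0.85) and Tnip1 like Bclaf3 (0.93), with Pdha1 and Prkag1 at 0.92 each. No UMI of Tnip1 was found among the 105320 UMIs of interferon-induced macrophages, all from mouse 6, which allows up to 28.5 CPM at 3 counts. In the classes ordered above, its means ran only from 7.01 CPM in cDC1 to 34.7 CPM in neutrophils. How far the likeness of Tnip1 rests on that empty sum was not tested. Tnip3 was most like Dcstamp (0.91), Ear2 (0.86) and Flt3 (0.85). The classes come from the same 10 mice and the same library, so these values describe likeness only.

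Between genotypes, resident macrophages of Jak2V617F Myel mice held more Nfkbia RNA than those of Jak2WT mice. The levels in Jak2WT mice 1 to 5 were 591, 1396.5, 775, 882 and 770 CPM, those in mice 6, 8 and 10 with dilation 1544, 1483 and 1328 CPM, and those in mice 7 and 9 with aneurysm 2003 and 1649 CPM. Jak2WT mouse 2 lay inside the range of the mutants and the other controls lay below all of them. The means were 883 ± 305 and 1601 ± 253 CPM (SD, n = 5 mice each), and the log2 fold change was 0.87 (SE 0.18, 1.83-fold, edgeR quasi-likelihood adjusted p = 0.0272 over 6531 genes). It was the only 1 of the 9 members tested that was called, beside 1.09% of all genes tested (71 genes). DESeq2 also called 1 member, beside 93 genes in all. An unadjusted p under 0.05 was seen in 4 of the 9 members and in 786 of the 6531 genes. The call was lost without Jak2WT mouse 1, 3 or 5 or without mutant mouse 6, 7 or 9 (log2 fold changes 0.75 to 0.88, edgeR adjusted p up to 0.0851). In a sum over cells, fewer cells of a state with a high level and less RNA per cell cannot be told apart.

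Tnfaip3 moved in the same direction without passing the threshold. It stood at 78.8, 156, 88.9, 192 and 75 CPM in Jak2WT mice 1 to 5, at 253, 136 and 188 CPM in mice 6, 8 and 10, and at 222 and 230 CPM in mice 7 and 9. The means were 118 ± 52.9 and 206 ± 45.7 CPM (SD, n = 5 each) with a log2 fold change of 0.88 (SE 0.24, edgeR adjusted p = 0.0824), and the groups overlapped. Tnip1 had its 5 Jak2WT levels at 25.1, 14.3, 24.5, 24 and 16.2 CPM, against 9.16, 17.8 and 9.47 CPM with dilation and 14 and 12 CPM with aneurysm. Its log2 fold change was −0.69 (SE 0.29, edgeR adjusted p = 0.323). Nfkbiz, the gene whose class pattern was most like that of Nfkbia, stood at 584, 1220.4, 386, 697 and 585 CPM in Jak2WT mice, 754, 725 and 980.2 CPM with dilation and 1089.5 and 1111 CPM with aneurysm. That was a log2 fold change of 0.44 (SE 0.22, edgeR adjusted p = 0.456), with mouse 2 again the highest control.

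For the subunits among the members, the log2 fold changes in resident macrophages were 0.14 for Nfkb1 (SE 0.16), 0.45 for Nfkb2 (SE 0.27), 0.36 for Rel (SE 0.18) and 0.31 for Relb (SE 0.22), with edgeR adjusted p-values from 0.444 to 0.837. Rela, a subunit gene outside the member list, averaged 52 ± 11.3 CPM in Jak2WT and 57 ± 6.93 CPM in mutant mice (SD, n = 5 each). The levels of Rel were 120, 182, 104, 144 and 132 CPM in Jak2WT mice and 195, 139, 128, 227 and 180.3 CPM in mutant mice 6, 8, 10, 7 and 9. Nfkbie gave −0.59 (SE 0.28, adjusted p = 0.405). Tnip3 was too low to be tested and lay between 0 and 14.3 CPM, where the 0 of Jak2WT mouse 3 allows up to 9.19 CPM at 3 counts. No member separated the genotypes without overlap, which 2.6% of the genes tested did. In an exact two-sided permutation test over the 252 divisions of the mice (smallest possible p = 0.00397), the unadjusted p over 10 members was 0.0159 for Nfkbia, 0.0317 for Tnip1, 0.0397 for Tnfaip3 and 0.0873 to 0.817 for the others. This permutation test was run on the members only, so no share of all genes stands beside it.

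**Figure D2:**
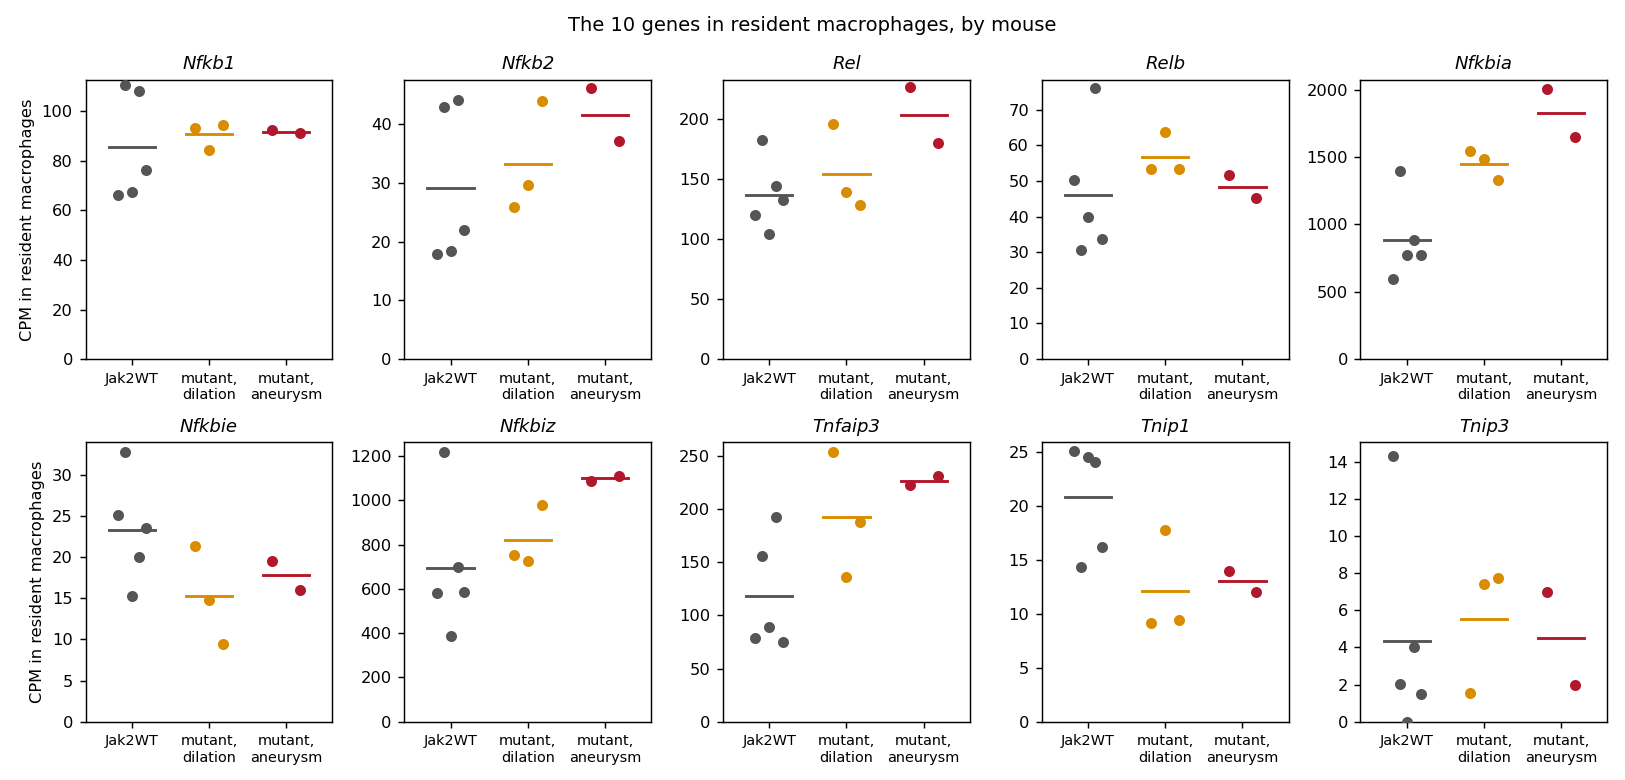
Level of each member in CPM in resident macrophages, 1 dot per mouse, for Jak2WT, Jak2V617F Myel with dilation and Jak2V617F Myel with aneurysm. Bars mark the group means, and each panel has its own axis. Nfkbia lies at 591 to 1396.5 CPM in Jak2WT mice and 1328 to 2003 CPM in mutant mice, and all 10 members overlap between genotypes.

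The blend of resident subsets moved with genotype. Res-MGL1hi/S100hi cells, whose Nfkbia level was the higher of the resident subsets, made up 25.5, 66.7, 15, 37.5 and 41.7% of resident macrophages in Jak2WT mice 1 to 5. They made up 79.7, 71.7 and 66.7% in mice 6, 8 and 10 and 73.6 and 80% in mice 7 and 9. Jak2WT mouse 2, the highest control for Nfkbia and Nfkbiz, was also the control with the highest share. Within Res-MGL1hi/S100hi macrophages alone, Nfkbia stood at 597, 1705 and 1067.5 CPM in Jak2WT mice 1, 2 and 5, the only controls with 10 such cells. It stood at 1674, 1777 and 1619.5 CPM with dilation and 2276.5 and 1837 CPM with aneurysm. The log2 fold change was 0.72 (SE 0.22, edgeR adjusted p = 0.363), and that of Tnfaip3 was 0.77 (adjusted p = 0.350). None of 8 members tested was called there by edgeR, beside 0.0647% of all genes. DESeq2 called 0 members and 7 genes. At an unadjusted p under 0.05 were 474 of 6181 genes, 2 of them members. Of 25 targets tested in the same sums, 2 were called higher, Cxcl10 (1.83, adjusted p = 0.000838) and Icam1 (1.29, adjusted p = 0.0146), and they were among the 4 genes called there. Within Res-Txnip hi macrophages, Nfkbia differed by a log2 fold change of 0.09 and Tnfaip3 by 0.38. There 0 of 5 members tested was called (0% of all genes by edgeR, and by DESeq2 0 members and 1 gene). None of the 166 of 2643 genes at an unadjusted p under 0.05 was a member.

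**Figure D3:**
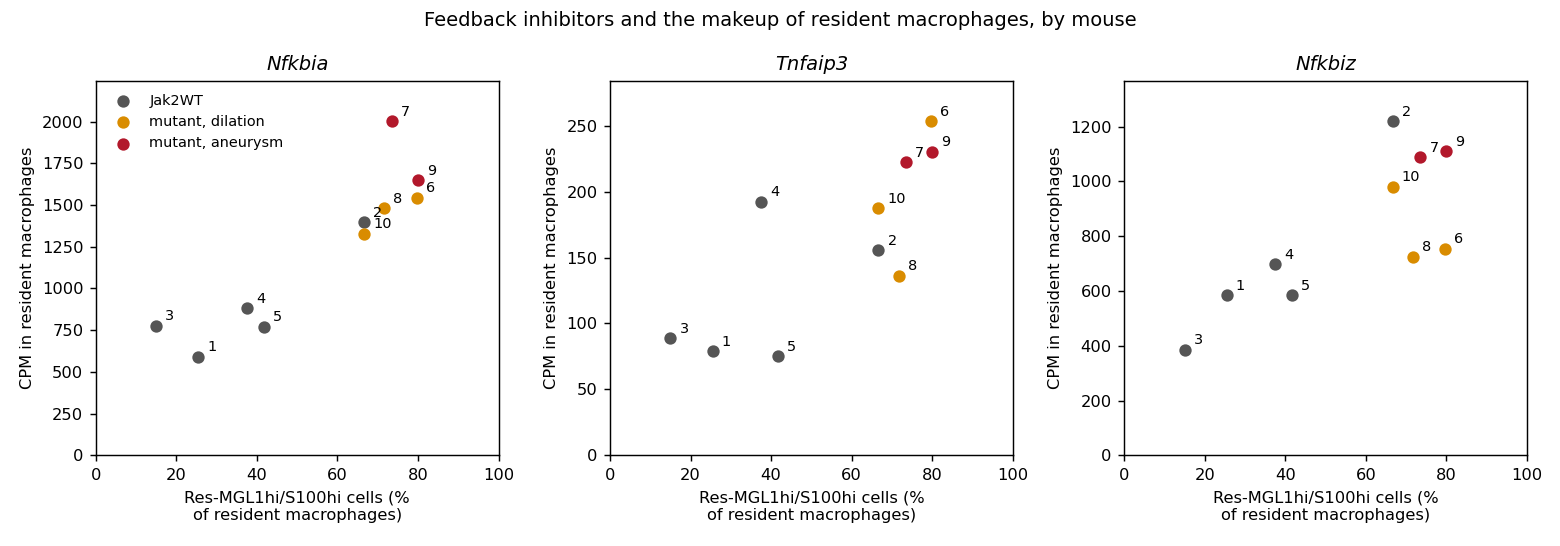
Level of Nfkbia, Tnfaip3 and Nfkbiz in CPM in resident macrophages (y) against the percentage of resident macrophages that were Res-MGL1hi/S100hi (x), 1 numbered point per mouse and coloured by group. The 5 mutant mice sit at 66.7 to 80% and 4 of 5 Jak2WT mice at 15 to 41.7%, with Jak2WT mouse 2 at 66.7%.

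Other gene lists were counted in the same sums. The median log2 fold change of 25 known NF-kappaB targets tested was 0.55 in mutant resident macrophages, against −0.01 over all genes. Of these targets, 5 were called higher and none lower, beside 1.09% of all genes tested. Among them were Cxcl10, a chemokine for T cells that interferons also induce (1.81, edgeR adjusted p = 1.74e-05), Icam1, an adhesion molecule (1.37, adjusted p = 0.0191), Cxcl2, a neutrophil chemokine (0.91, adjusted p = 0.0454), and Ier3 (0.62, adjusted p = 0.0206). The other 1 was Ehd1, named after its value was seen. The study had already reported Cxcl10 and Cxcl2 as higher in Res-MGL1hi macrophages of these data, so the calls of these genes are not independent. Of 30 other pathway genes tested, 0 were called, with 21 positive and a median of 0.15. The 20 immediate-early genes tested had 0 called, 19 positive and a median of 0.32, and the 10 heat-shock genes had 0 called, 10 positive and a median of 0.51. The summed level of the heat-shock list was 9931 to 18426 CPM in Jak2WT mice, where mouse 2 was the highest and the others reached 11904, and 15164 to 18623 CPM in mutant mice. The part of these lists in the result for Nfkbia was not tested.

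When IEG+ macrophages were added to the resident ones, the call passed from Nfkbia to Tnfaip3. Tnfaip3 then stood at 247, 332, 289, 265 and 166 CPM in Jak2WT mice, 367, 403 and 451 CPM with dilation and 461 and 502 CPM with aneurysm. All 5 mutant mice lay above all 5 controls, as 2.42% of the genes tested did in either direction. The log2 fold change was 0.76 (SE 0.15, edgeR adjusted p = 0.0334), the only call among 9 members tested beside 0.516% of all genes. Nfkbia gave 0.39 (SE 0.14, adjusted p = 0.262) in the same sums. The blend of these sums differed between mice. Jak2WT mice 1 to 5 held 30, 55, 53, 7 and 48 IEG+ cells, 14, 30, 6, 9 and 35 Res-MGL1hi/S100hi cells and 41, 15, 34, 15 and 49 Res-Txnip hi cells. Mutant mice 6, 8, 10, 7 and 9 held 48, 55, 112, 56 and 84, then 47, 43, 68, 39 and 72, then 12, 17, 34, 14 and 18. The part of this blend in the value for Tnfaip3 was not tested. In IEG+ macrophages alone, 0 of 7 members tested was called (0.561% of all genes by edgeR, and by DESeq2 0 members and 60 genes). At an unadjusted p under 0.05 were 620 of 5350 genes, 1 of them a member. Tnfaip3 was that gene, with 606, 521, 451 and 346 CPM in Jak2WT mice 1, 2, 3 and 5, 527, 738 and 733 CPM with dilation and 768 and 789 CPM with aneurysm (log2 fold change 0.50, SE 0.16, edgeR adjusted p = 0.154). In that class the macrophage chemokine Ccl3, a target, was lower in mutant mice by a log2 fold change of −0.94 (adjusted p = 0.0150), the only called gene of 27 targets tested. Immediate-early genes in IEG+ macrophages had 3 of 20 called lower, Egr3 (−1.05), Egr2 (−0.77) and Egr1 (−0.51), with 17 negative, and of 10 heat-shock genes Dnajb1 (−0.76) was called lower, with 8 negative. The part of these lists in the values for Tnfaip3 was not tested.

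In lymphocytes and dendritic cells no member was called between genotypes. In T cells, all 6 members tested were negative, from −0.71 to −0.30. None was called (0% of all genes by edgeR, and by DESeq2 0 members and 3 genes). There 381 of 3813 genes had an unadjusted p under 0.05, 1 of them a member. Nfkbia in T cells stood at 554, 380, 313, 487 and 302 CPM in Jak2WT mice, 305, 188 and 184 CPM with dilation and 458 and 270.2 CPM with aneurysm, so that the groups overlapped (log2 fold change −0.71, SE 0.26, edgeR adjusted p = 0.354). In B cells 0 of 8 members tested was called (0% of all genes by edgeR, and by DESeq2 0 members and 3 genes). None of the 143 of 3300 genes at an unadjusted p under 0.05 was a member. In cDC2 all 9 members tested were positive, from 0.03 to 0.74. None was called (0.0236% of all genes by edgeR, and by DESeq2 0 members and 16 genes). An unadjusted p under 0.05 was seen in 1 of these 9 and in 326 of 4238 genes. The summed level of 8 macrophage markers in cDC2 was 907 to 2093 CPM in Jak2WT mice and 1830 to 5230 CPM in mutant mice, and its part in these values was not tested.

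In ILC2, 0 of 5 members tested was called (0% of all genes by edgeR, and by DESeq2 0 members and 1 gene). At an unadjusted p under 0.05 were 116 of 1871 genes, 1 of them a member. The 1 was Nfkb1, at 325, 636, 634 and 616 CPM in Jak2WT mice 1, 2, 3 and 5 against 1011, 815 and 855 CPM with dilation and 1118 and 736 CPM with aneurysm. The groups did not overlap, as was so for 2.51% of the genes tested in ILC2, and the log2 fold change was 0.66 (SE 0.20, edgeR adjusted p = 0.661). Sums in ILC2 held 11 to 44 cells. Immediate-early genes in ILC2 were positive in 15 of 16 tested (0 called), and their summed level was 6667 CPM in Jak2WT mouse 1, the lowest for Nfkb1 too, against 10024 to 18650 CPM in the other mice. The part of that list in the values for Nfkb1 was not tested.

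**Figure D4:**
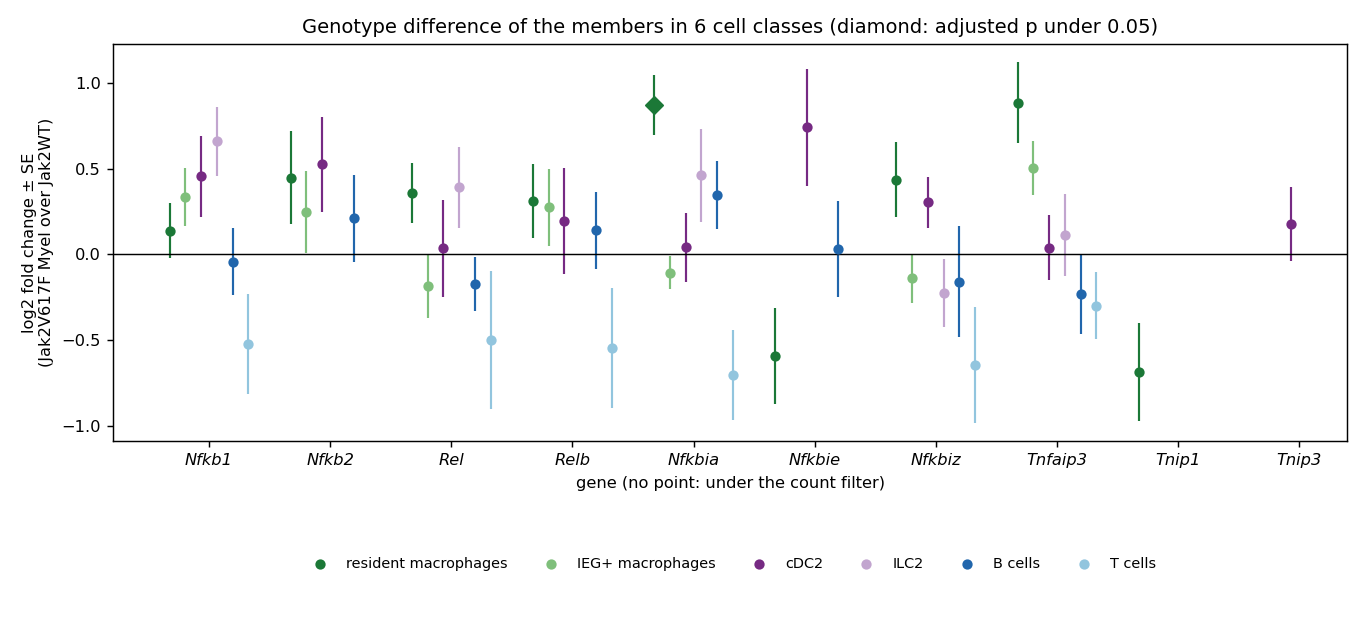
Log2 fold change between Jak2V617F Myel and Jak2WT mice with its standard error for the 10 members in 6 classes. Diamonds mark an edgeR adjusted p under 0.05, and a gene without a point was under the count filter. The diamond is Nfkbia in resident macrophages (0.87), and in T cells the 6 points are all below 0.

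Whether the genotype effect differed between cell types was tested as an interaction with the mouse as a block. The effect on Nfkbia in resident macrophages exceeded that in T cells by 1.71 on the log2 scale (SE 0.27, edgeR adjusted p = 0.00638). It was the 1 member called of 9 tested, beside 0.0651% of all genes (5 of 7685). An unadjusted p under 0.05 was seen in 7 of the 9 members and in 715 of the 7685 genes. DESeq2 also called 1 member, beside 11 genes in all. The edgeR call of Nfkbia held without any 1 of the 10 mice. It was lost when IEG+ macrophages were added to the resident ones (1.21, adjusted p = 0.207). Among the targets, Icam1 (2.21) and Cxcl2 (1.39) were called as well. Immediate-early genes were positive in 20 of 20 (median 0.73, 0 called) and heat-shock genes in 10 of 10 (median 0.93, 0 called), and in T cells alone heat-shock genes were negative in 10 of 10 (median −0.32, 0 called). The part of these lists in the difference for Nfkbia was not tested. The differences for Tnfaip3 (1.31, SE 0.29, adjusted p = 0.102), Nfkbiz (1.26, adjusted p = 0.113), Relb (1.05), Rel (0.84), Nfkb2 (0.79) and Nfkb1 (0.74) did not pass, nor did Nfkbie (−1) or Tnip1 (−0.13). Against B cells, 0 of 9 members was called (0.129% of all genes by edgeR, and by DESeq2 0 members and 1 gene). Tnfaip3 came nearest (1.39, SE 0.33, edgeR adjusted p = 0.0839). There 428 of 7758 genes had an unadjusted p under 0.05, 4 of them members. The target Cd83 (1.33) and the immediate-early gene Nr4a1 (1.35) were called. The T cell class included 203 cells with thymocyte genes such as Rag1.

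The comparisons by aortopathy used 3 mutant mice with dilation and 2 with aneurysm. In resident macrophages of mice with dilation against Jak2WT, 0 of 9 members tested was called (0.0304% of all genes by edgeR). DESeq2 called 0 members and 17 genes. At an unadjusted p under 0.05 were 555 of 6580 genes, 2 of them members. Nfkbia had a log2 fold change of 0.73 (SE 0.20, edgeR adjusted p = 0.225) and Tnfaip3 one of 0.78 (adjusted p = 0.390). The target Cxcl10 was called (1.80, adjusted p = 0.000821). Between aneurysm and dilation in resident macrophages, 0 of 8 was called (0% of all genes by edgeR), with Nfkbiz at 0.41 and Nfkbia at 0.32. DESeq2 called 0 members and 0 genes. In that comparison 319 of 6971 genes had an unadjusted p under 0.05, 2 of them members. In all curated macrophages of mice with dilation against Jak2WT, 0 of 10 was called (0.012% of all genes by edgeR). DESeq2 called 0 members and 17 genes. Here 625 of 8334 genes had an unadjusted p under 0.05, 2 of them members.

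In all curated macrophages, 6 members were higher with aneurysm than with dilation: the subunits Nfkb1, Nfkb2 and Rel and the inhibitors Nfkbie, Tnip1 and Tnip3. Tnip3 stood at 263 and 230.2 CPM in mice 7 and 9 with aneurysm against 34.7, 14.9 and 21.1 CPM in mice 6, 8 and 10 with dilation, and at 9 to 70.8 CPM in Jak2WT mice. Its log2 fold change was 3.48 (SE 0.24, 11.2-fold, edgeR adjusted p = 6.21e-05). The study lists Tnip3 among the genes of its inflammatory macrophages, which it found abundant in aneurysm, so this p-value is no independent test. Rel stood at 655 and 476 CPM with aneurysm against 318, 230.5 and 284 CPM with dilation (log2 fold change 1.10, SE 0.17, adjusted p = 0.00322). Nfkb1 stood at 238 and 224 CPM against 147, 113 and 128 CPM (0.91, SE 0.14, adjusted p = 0.00267). In each of these genes both aneurysm mice lay above all 3 dilation mice.

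Nfkbie stood at 53.2 and 42.2 CPM with aneurysm against 21.7, 20.6 and 20.3 CPM with dilation (log2 fold change 1.27, SE 0.16, edgeR adjusted p = 0.00126). Tnip1 stood at 36.8 and 33.4 CPM against 10.9, 18.4 and 13.1 CPM (1.40, SE 0.21, adjusted p = 0.00243). Nfkb2 stood at 81.9 and 68.1 CPM against 52.1, 40.4 and 54.1 CPM (0.67, SE 0.15, adjusted p = 0.0190), and this call was lost without mouse 7 (0.53, adjusted p = 0.157) or without mouse 8 (0.56). The other 4 members did not pass: Nfkbia gave 0.03, Nfkbiz −0.23, Tnfaip3 0.25 and Relb 0.21. Nfkbia stood at 2565 and 2235.5 CPM with aneurysm and at 2412, 2655 and 2363.5 CPM with dilation.

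These 6 of 10 calls have to be read against 12.2% of the 9866 genes tested that were called in this comparison (1208 genes) and 7.28% that were called higher with aneurysm (718 genes). These shares are from edgeR, and DESeq2 called 6 members and 913 genes. The 6 genes did not overlap between groups, as was so for 43.6% of all genes tested, and with 2 mice against 3 the exact permutation p over 10 divisions could not go below 0.1, which each of the 6 reached. The makeup of the macrophages moved with the groups. Ccr2+ inflammatory cells were 65.7 and 49% of macrophages in mice 7 and 9, 7.63, 3.17 and 8.03% in mice 6, 8 and 10 and 0.962 to 9.65% in Jak2WT mice, while IEG+ cells were 15.5 and 21.8% with aneurysm against 36.6, 43.7 and 45% with dilation. In resident and IEG+ macrophages without the inflammatory ones, 0 of 10 members was called (0.0239% of all genes by edgeR). DESeq2 called 0 members and 4 genes. Rel stood at 0.51 (edgeR adjusted p = 0.419), Nfkb1 at 0.29 and Tnip3 at −0.63. There 478 of 8371 genes had an unadjusted p under 0.05, 2 of them members. The immediate-early gene Jun was called lower (−0.52, adjusted p = 0.0152). In IEG+ macrophages alone 0 of 8 was called (0% of all genes by edgeR, and by DESeq2 0 members and 3 genes). There 329 of 6108 genes, 2 of them members, had an unadjusted p under 0.05. In cDC2, where Tnip3 is highest, 0 of 10 was called (0.0294% of all genes by edgeR, and by DESeq2 0 members and 30 genes). The unadjusted p was under 0.05 there in 601 of 6799 genes, 1 of them a member.

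**Figure D5:**
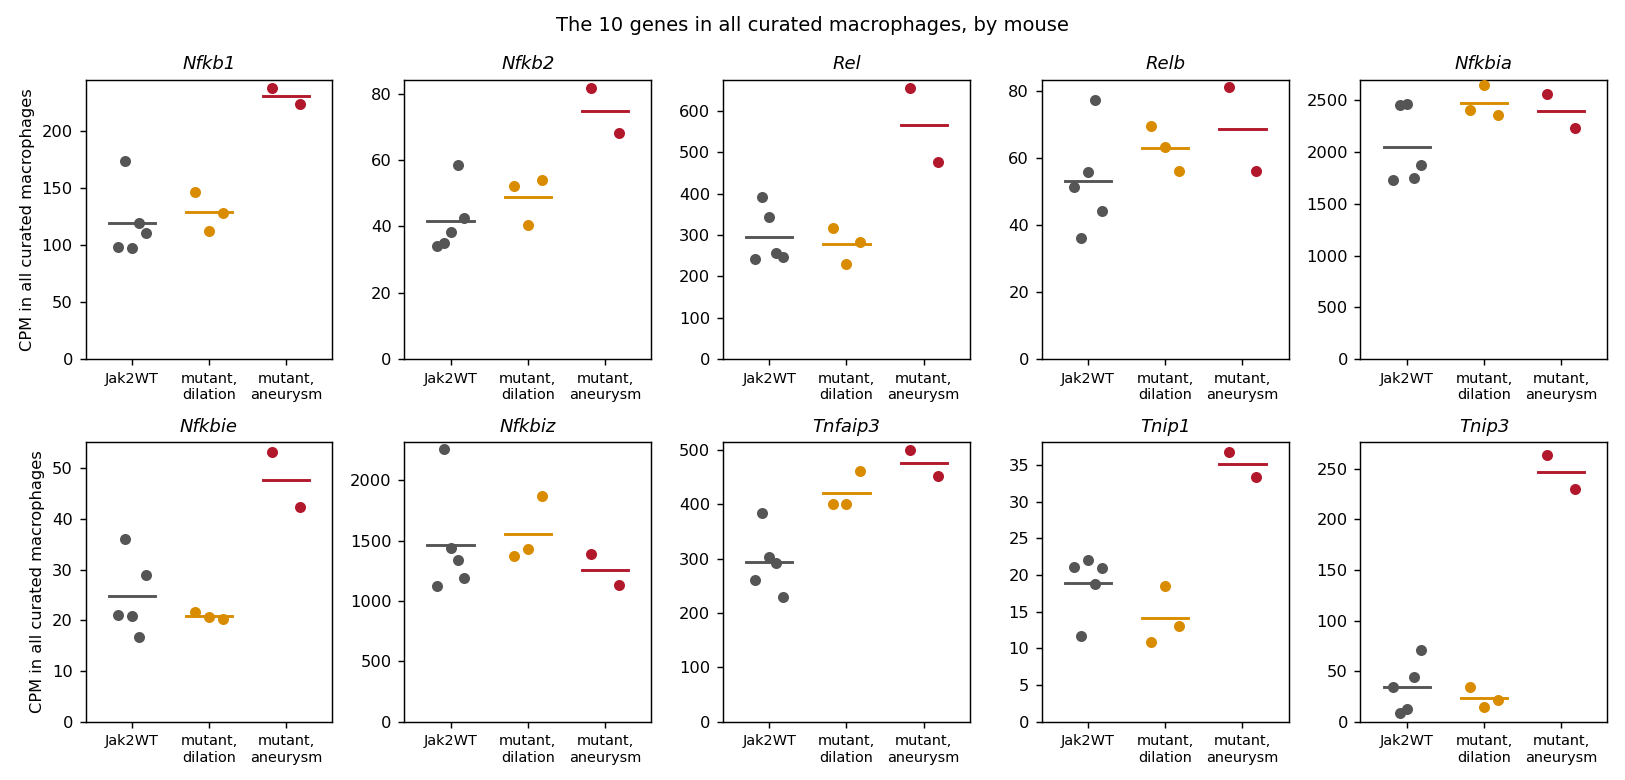
Level of each member in CPM in all curated macrophages, 1 dot per mouse, by group, with bars at the group means. For Tnip3 the mice with aneurysm lie at 230.2 and 263 CPM and all others at 9 to 70.8 CPM, whereas Nfkbia spans 1731 to 2655 CPM with the groups overlapping.

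Other pathway genes and targets were counted in the same comparison. Over all 9866 genes tested there, 718 (7.28%) were called higher with aneurysm and 490 were called lower. Of 38 other pathway genes tested, 7 were called higher with aneurysm, among them Traf1 (1.95), an adaptor of TNF receptors, the ribonuclease gene Zc3h12a (1.33), Traf3 (1.10) and the atypical IkappaB gene Bcl3 (0.95), with a median of 0.10 over the list. Of 34 targets tested, 16 were called higher, among them Il1b (2.49), Il10 (2.45) and the survival genes Bcl2a1b (2.46) and Bcl2a1d (2.36), with a median of 0.61. Bcl2a1b and Bcl2a1d are near-identical copies whose reads can be split between them. Of 20 immediate-early genes, 12 were called lower, among them Ccn1 (−1.98), Jun (−1.35) and Klf2 (−0.88), and of 10 heat-shock genes 4 were called lower, among them Hspa1b (−1.29), Hspa1a (−1.27) and Hsph1 (−0.91). The shares of Ccr2+ inflammatory and IEG+ cells differ between these mice as given for the members. Il1b and Jun were also markers that named the Ccr2+ inflammatory and IEG+ classes, so their calls are no independent test.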

How the data were processed

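The authors deposited raw UMI counts per gene and hashtag counts per barcode, made with Cell Ranger 6.0.2 on mm10 from one droplet library. Each hashtag was taken as 1 mouse, with genotype and aneurysm status as the methods of the study give them. Barcodes were assigned with HTODemux (Seurat 5.3.0, R 4.3.3, positive quantile 0.99). Barcodes with more than 1 hashtag were dropped as doublets, as were cells over 10% mitochondrial UMIs. Cells were clustered on 2000 variable genes without the members (20 principal components, 20 neighbours, resolution 0.3, and 0.8 for macrophages) and named from marker lists, for a class with at least 3 detected markers. Res-MGL1hi and Res-S100hi cells fell into 1 cluster. A cluster of 345 cells led by hemoglobin genes (median 1771 UMIs) and 38 B cells carrying macrophage RNA were left out. UMIs were summed per mouse and class for sums of at least 10 cells.

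Genotypes and aortopathy groups were compared with edgeR 4.0.16 (filterByExpr, TMM, quasi-likelihood F test, Benjamini-Hochberg over all genes tested, threshold 0.05). Standard errors were derived from the F statistic and the log2 fold change. The difference between cell types was an interaction with the mouse as a block. DESeq2 1.42.0, other scalings, filters, hashtag callers, resolutions and cell limits, and leaving out each mouse, were tried. The comparisons within single resident subsets, within IEG+ macrophages and cDC2 for aneurysm, across all curated macrophages for dilation against Jak2WT, without the thymocyte-like cluster and with the B cells carrying macrophage RNA were added after the data were seen. Tests were run on simulated data first. Every comparison tested each member that passed the count filter, and for several comparisons only some or none of the member values are printed. Of other lists, the called genes with the highest absolute log2 fold change were named, up to 4 per direction for pathway genes and targets and up to 3 for immediate-early and heat-shock genes. The members and lists were chosen with earlier results of these data known. Each mouse is 1 replicate, and limits from 3 counts cover counting error only.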

Additional observations from a re-analysis of the deposited data

Results flagged for a closer look

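Samples standing apart from the rest of their group were looked for in 60 groups of 4 or 5 mice, by the gap to the nearest other mouse over the range of the group. In 8 of them a mouse stood apart. For independent groups chance alone gives about 1 in 20, but these groups share mice and cells, so the 8 cannot be set against that rate. In resident macrophages, Tnip3 was 14.3 CPM in Jak2WT mouse 1 against 0 to 4.01 CPM in the other controls. In IEG+ macrophages, Nfkb2 was 37.3 CPM in mutant mouse 8 against 61.8 to 70.1 CPM in the other mutants, Nfkbie was 45 CPM in mutant mouse 7 against 15.9 to 22.9 CPM, and Tnip3 was 5.30 CPM in mutant mouse 9 against 13 to 14.9 CPM. Tnfaip3 in that class was 527 CPM in mutant mouse 6 against 733 to 789 CPM in the other mutants, and Nfkbiz was 3445 CPM in Jak2WT mouse 2 against 2066 to 2265.5 CPM in 3 other controls. In all curated macrophages Jak2WT mouse 2 was high for Nfkb1, at 174 CPM against 97.7 to 119 CPM, and for Nfkbiz, at 2256 CPM against 1120.2 to 1438 CPM. Mouse 2 was also the control with the highest share of Res-MGL1hi/S100hi cells among resident macrophages, and the part of that share was not tested.

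The genotype effect on Nfkbia differed between resident macrophages and T cells by 1.71 on the log2 scale (SE 0.27, edgeR adjusted p = 0.00638), where the effect was 0.87 in resident macrophages and −0.71 in T cells. Ccr2, which marks macrophages of monocyte origin, was 0 to 148 CPM in resident macrophages of Jak2WT mice and 24.1 to 101 CPM in those of mutant mice.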

How the results depend on the processing

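Over all alternatives, the values of single members kept their direction and their side of the threshold in 901 cases, passed it newly in 43, no longer passed it in 28 and changed sign in 28. All members tested entered these cases only for genotype in resident macrophages, aneurysm in all curated macrophages and the difference from T cells. In the other comparisons only Nfkbia and Tnfaip3 were counted.

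The number of members called between genotypes in resident macrophages (1) became 3 with no count filter, 4 with MULTIseqDemux in place of HTODemux, 2 with a mitochondrial limit of 5%, 3 with the members kept among the variable genes, 2 at macrophage resolution 0.5 and at 1.2, and 2 without cells with markers of 2 lineages. Tnfaip3 was added in each of these (edgeR adjusted p from 3.76e-07 to 0.0431). All genes called (71) rose too, to 317 with no count filter, 237 with MULTIseqDemux and 122 with the 5% limit. They were 149 with the members kept and 173 without 2-lineage cells. The number of members became 0 with dilation alone, in Res-MGL1hi/S100hi alone and in Res-Txnip hi alone (where Nfkb1 turned to −0.090 and Nfkbiz to −0.32), and ranged from 0 to 3 without single mice. With these 3, all genes called were 2, 4 and 0. Members with a permutation p under 0.05 (3) became 6 with MULTIseqDemux, 5 with the 5% limit and 5 with the members kept, and ranged from 1 to 4 without single mice. With no filter, IEG+ macrophages gave 1, ILC2 2 and dilation against Jak2WT 2 (from 0 each). All genes called there rose to 187, 40 and 196, from 30, 0 and 2. Dilation against Jak2WT gave 2 with MULTIseqDemux and 1 with the members kept, where 42 and 17 of all genes were called. Without single mice it gave 0 to 1. Aneurysm against dilation (6) gave 5 to 6 without single mice and 0 in resident with IEG+ macrophages, in IEG+ macrophages and in cDC2.

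For resident macrophages against T cells (1), the count was 3 with no filter and with MULTIseqDemux, 2 with 20 cells per sum, the 5% limit, the members kept, resolution 0.5, 2-lineage cells left out or the thymocyte-like cluster left out, 0 with IEG+ macrophages added, and 1 to 3 without single mice. All genes called against T cells (5) were 60 with no filter, 12 with MULTIseqDemux, 8 with 20 cells and 11 with the members kept. They were 15 without 2-lineage cells, 21 without the thymocyte-like cluster and 2 with IEG+ macrophages added. Against B cells (0) the count of members was 1 with no filter, the 5% limit, the members kept, resolution 1.2 or 2-lineage cells left out, and 0 to 2 without single mice. All genes called there (10) were 21 with no filter and 19 with the members kept. The class of highest level held for 8 to 10 members without single mice. Relb moved to gd T cells without mouse 6, Nfkbie to gd T cells without mouse 9 and Nfkb1 to mast cells without Jak2WT mouse 5, while Tnip1 moved without 6 different mice. With the mean over cells in place of the sum, Nfkbia moved to neutrophils and Tnfaip3 to mast cells.

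Other values changed sign. In IEG+ macrophages Nfkbia became 0.035 with MULTIseqDemux and 0.014 when clustered without immediate-early and heat-shock genes. In B cells Tnfaip3 became 0.021 with that clustering and 0.054 with the cells carrying macrophage RNA. In cDC2 Nfkbia became −0.22 with 20 cells, −0.051 at 5% and −0.0087 with dilation alone, and ranged from −0.15 to 0.23 without single mice (negative without Jak2WT mouse 4), and Tnfaip3 became −0.20 with 20 cells, −0.017 at 5%, and ranged from −0.067 to 0.29 without single mice (negative without Jak2WT mouse 1, 2 or 4 or mutant mouse 10). In ILC2 Tnfaip3 became −0.27 with 20 cells and ranged from −0.10 (without Jak2WT mouse 1) to 0.30. For aneurysm, Relb became −0.022 in resident with IEG+ macrophages and ranged from −0.086 (without mouse 7) to 0.46. Nfkbia became −0.046 with library size alone and −0.16 in IEG+ macrophages, and ranged from −0.077 (without mouse 7) to 0.14. In resident with IEG+ macrophages Nfkbiz became 0.069 and Tnip3 −0.63, and Tnfaip3 became −0.11 in cDC2. For resident macrophages against T cells, Tnip1 became 0.0081 at resolution 1.2 and 0.020 with IEG+ macrophages added. The cause of these changes was not tested.

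Counts of all genes called moved more than those of the members. Between genotypes in resident macrophages (71) they ran from 0 to 317 over alternatives, and from 4 to 144 without single mice. The 0 came from Res-Txnip hi macrophages alone, and the 317 from no count filter. In IEG+ macrophages (30) they ran from 3 to 187, and for the interaction with T cells (5) from 2 to 60. For aneurysm (1208) they were 1832 with no count filter. The comparisons in other classes gave 0 in IEG+ macrophages and 2 each in resident with IEG+ macrophages and in cDC2. No paired analysis was possible because mice of different groups share no number. Some sums rest on few cells, among them all 4 of mast cells (10 or 11 cells) and those of mice 2 and 6 in Ccr2+ inflammatory macrophages (11 and 10), and Tnip3 and Tnip1 rest on few UMIs outside the classes where they are highest.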

Other observations

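Some classes had too few mice for a comparison, and their values are given as they stand. In NK cells, reached in mice 10 and 7 only, Tnfaip3 stood at 459 and 686 CPM, Nfkbia at 212 and 221 CPM and Nfkbiz at 44.1 and 45.4 CPM. Gamma-delta T cells held Tnfaip3 at 532 CPM in Jak2WT mouse 2, 488 CPM in mouse 10 and 711 and 709.5 CPM in mice 7 and 9. Saa3+ myeloid cells held Nfkbia at 3662, 3585 and 2506 CPM in Jak2WT mouse 5 and mutant mice 8 and 10. Proliferating cells held Tnip3 at 5.74 CPM in Jak2WT mouse 3, 100.1 CPM in mouse 10 with dilation and 660 and 279 CPM in mice 7 and 9 with aneurysm. The lineages in this class differed between these mice. In mice 3, 10, 7 and 9, summed T cell markers were 3833, 3534, 845 and 615 CPM. Macrophage markers were 1125, 2246, 5357 and 6200 CPM, and cDC2 markers 138, 115, 502 and 163 CPM. The part of this mix in the values for Tnip3 was not tested. The cDC1 cells held Tnip3 at 74.1 CPM in Jak2WT mouse 2, 174 CPM in mouse 6 with dilation and 230 and 144 CPM in mice 7 and 9 with aneurysm. None of these differences was tested.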
